A study of Sus scrofa with 21 samples.

Results

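The immediate early genes described here are FOS, FOSB, JUNB, EGR1, EGR2, ATF3, NR4A1, DUSP1 and IER2. They were taken by Ensembl pig gene name from a list of 10 symbols, of which 9 were found among the 18661 genes in the files, and JUN was not analysed here. Bulk RNA was sequenced from the distal small intestine of 21 piglets of the cross Danish Landrace/Yorkshire, at 24 to 25 days of age. The starch group (n = 11) received milk replacer to which wheat had been added as a starch source, and the control group (n = 10) received the same replacer without it. All piglets thus had milk replacer in common. Sex, litter and batch are not in the labels.

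Immediate early genes are switched on within minutes of a stimulus without the need for new protein, and their messages decay quickly. Growth factors, stretch, injury and cell stress act on them through kinase cascades that reach factors already bound at their promoters. FOS, FOSB and JUNB encode subunits of the transcription factor AP-1, ATF3 a stress-induced factor that can pair with JUN proteins, EGR1 and EGR2 zinc-finger factors, NR4A1 an orphan nuclear receptor, DUSP1 a phosphatase that switches off MAP kinases, and IER2 a small nuclear protein. In the gut wall many cell types can express them.

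Diet did not separate these genes. Of the 8 members that passed the filter on low counts, 0 differed between starch and control at an adjusted p below 0.05 in edgeR's quasi-likelihood test, where 0 of 13127 genes (0%) did so. At an unadjusted p below 0.05 there were again 0 members, against 174 genes (1.33%). Starch and control ranges overlapped for all 9 members. Differences between single piglets were far larger: starch 3, control 8 and control 5 held the highest FOS, FOSB and NR4A1, whatever their diet.

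The total expected count, an estimate that can hold fractions of a read, was 6719264 to 8610458 per piglet, and 15702 to 16335 genes were listed in each. Control 5, control 8 and starch 3 are already known from these data to stand apart from the other 18 piglets by their low RNA of absorptive cells. The 10 enterocyte markers in the files, of 12 listed, summed to 2050 CPM (counts scaled to a common library size) in starch 3, 1970 CPM in control 5 and 2440 CPM in control 8, and to at least 12100 CPM in every other piglet. None of the 10 was at 0 in any piglet. APOA1, an apolipoprotein of chylomicrons, read 50.1 CPM in starch 3, 107 CPM in control 5 and 103 CPM in control 8, while every other piglet had at least 1060 CPM. EPCAM, a marker of all epithelium, differed far less, at 481 CPM in starch 3, 361 CPM in control 5 (the lowest of all) and 697 CPM in control 8, beside 473 CPM in the lowest of the other 18. The other markers were not alike. APOA4, APOB, FABP2, ANPEP, SI and VIL1 were, like APOA1, lower in these 3 piglets than in any other. KRT20 was not low, at 799 CPM in starch 3, 645 CPM in control 5 and 703 CPM in control 8, beside a median of 608 CPM. CDH17 read 424, 560 and 644 CPM in the same order, beside 469 CPM in the lowest of the other 18. In bulk tissue, fewer cells of a type and less RNA per cell cannot be told apart. Correlations and fold changes are therefore also given without these 3 piglets, and their part in the values was not tested.

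Levels were compared between genes only per length, as FPKM (fragments per kilobase of the coding length, scaled to depth). JUNB and IER2 were highest, with a median of 54.2 FPKM for JUNB (range 31.3 to 154) and 53.4 FPKM for IER2 (43.5 to 74.0). The order of these neighbours was not settled, since JUNB exceeded IER2 in 10 of 21 piglets. DUSP1 followed at a median of 24.3 FPKM and lay below IER2 in 19 of 21 piglets. EGR1 had a median of 14.6 FPKM, FOS 8.49 FPKM, NR4A1 5.46 FPKM and ATF3 4.80 FPKM. Neighbours in this stretch often changed places, with DUSP1 above EGR1 in 14, EGR1 above FOS in 15 and NR4A1 above ATF3 in 14 of 21 piglets, while FOS lay above NR4A1 in 19. EGR2 at 2.25 FPKM and FOSB at 0.30 FPKM came last, EGR2 being above FOSB in every piglet. FPKM of FOS ran from 3.89 to 96.8, so that in the highest piglet FOS was in the range of JUNB and in the lowest in the range of EGR2.

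The AP-1 subunits come first by role. FOS, the partner that JUN proteins need to form the most stable AP-1 dimers, ran from 4.73 CPM over a median of 8.72 CPM to 99.3 CPM in starch piglets, and from 5.80 CPM over a median of 10.9 CPM to 92.0 CPM in control piglets. The 3 highest values were 99.3 CPM in starch 3, 92.0 CPM in control 8 and 61.8 CPM in control 5. Next came starch 4 at 53.0 CPM and starch 2 at 36.3 CPM, and all other piglets lay at or below 18.3 CPM, the value of starch 11. Each diet thus held a few high piglets above the rest, which over both diets ran from 4.73 to 18.3 CPM. On the log2 scale starch minus control, used for every fold change here, FOS differed by -0.01 (SE 0.61, 95% interval -1.28 to 1.25, adjusted p = 0.9998 in edgeR's test, n = 11 and 10). That near-zero difference rested on few animals. Without control 8 it was 0.54, without starch 3 it was -0.60, and without control 5, control 8 and starch 3 it was 0.61, with an unadjusted p = 0.182 in the same edgeR test.

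JUNB, the JUN family member measured here, was expressed in every piglet, with a lowest value of 32.5 CPM, a median of 56.8 CPM and a highest value of 143 CPM on starch. In control piglets these values were 34.0, 56.9 and 90.4 CPM. The medians were almost equal, and starch 3 at 143 CPM and starch 4 at 126 CPM exceeded all others. Its log2 fold change was 0.18 (SE 0.25, 95% interval -0.33 to 0.69), turned to -0.01 without starch 3 and was 0.18 without control 5, control 8 and starch 3. FOSB, a close relative of FOS, did not pass the filter, with 16 counts in its highest piglet. It had counts in 8 of 11 starch piglets and in 7 of 10 control piglets, with at most 1.85 CPM in starch 3, 1.39 CPM in control 5 and 1.03 CPM in control 8. With no filter its log2 fold change was 0.16 (unadjusted p = 0.823 in edgeR's test). ATF3 ran from 1.67 CPM over a median of 3.53 CPM to 13.4 CPM in starch piglets, and from 1.17 CPM over 2.67 CPM to 8.36 CPM in control piglets. Its high values were spread over more animals than those of FOS, since starch 4, starch 2 and starch 9 read 8.23, 6.65 and 6.16 CPM, and control 5, control 3 and control 8 read 8.36, 7.30 and 6.28 CPM. The log2 fold change of ATF3, 0.47 (SE 0.40, 95% interval -0.36 to 1.30), was the largest among the 8 tested members over 21 piglets and kept its sign in all 32 alternatives. Without starch 3 it was 0.20, below the 0.28 of DUSP1, and without control 5, control 8 and starch 3 it was 0.63.

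The zinc-finger factors differed in how far their high piglets were those of FOS. EGR1, known to be induced through serum response factor together with FOS, had a lowest value of 8.90 CPM, a median of 21.9 CPM and a highest of 125 CPM on starch, against 11.9, 22.4 and 59.8 CPM in control. The 5 highest piglets for EGR1 were the 5 highest for FOS. Starch 3 was alone at 125 CPM, while starch 4 at 59.1 CPM, control 5 at 59.8 CPM and control 8 at 57.2 CPM lay together. The log2 fold change was 0.35 (SE 0.42, 95% interval -0.52 to 1.22), and -0.11 without starch 3. EGR2 was less abundant, with 1.29, 2.87 and 14.3 CPM as lowest, median and highest value on starch, and 0.425, 2.55 and 9.16 CPM in control. Its high piglets included starch 10 at 6.97 CPM, a piglet in which FOS read 7.51 CPM, below the median, and starch 2, with the fifth highest FOS, had an EGR2 of 1.51 CPM. The log2 fold change of EGR2 was 0.33 (SE 0.47, 95% interval -0.64 to 1.30), and -0.06 without starch 3.

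The remaining members have other roles and other patterns. NR4A1 read 6.61 CPM at the lowest, 10.2 CPM at the median and 35.1 CPM at the highest in starch piglets, and 5.77, 8.81 and 18.2 CPM in control piglets. The counts of NR4A1 were divided equally over 3 transcripts of the same coding length, 1797 bases, and the RefSeq table lists its locus as a pseudogene, so only the gene sum is used. Starch 3, control 8 and control 5 were the 3 highest, at 35.1, 18.2 and 17.2 CPM, and the other 18 lay within 5.77 to 13.0 CPM. Unlike for FOS, starch 4 was among the low piglets, at 6.61 CPM. The log2 fold change was 0.21 (SE 0.29, 95% interval -0.39 to 0.80), and -0.12 without starch 3.

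DUSP1 is itself induced by the MAP kinases that it then dephosphorylates. It ran from 12.7 CPM over a median of 25.9 CPM to 75.6 CPM in starch piglets, and from 12.2 CPM over 21.4 CPM to 35.9 CPM in control piglets. The highest value, 75.6 CPM, was that of starch 2, followed by 53.9 CPM in starch 3, whereas control 5 read 17.6 CPM and control 8 also lay below the control median. The log2 fold change was 0.40 (SE 0.28, 95% interval -0.18 to 0.97), 0.17 when starch 2 was left out and 0.21 in the 18 piglets. IER2 barely varied, at 26.7, 33.3 and 43.7 CPM as lowest, median and highest value on starch and 23.0, 35.2 and 44.4 CPM in control. Its highest piglet exceeded its lowest 1.93-fold, compared with 14.1-fold for EGR1 and 33.6-fold for EGR2. In the 5 piglets with the highest FOS, IER2 read 26.7 CPM in starch 3, 33.3 CPM in starch 4, 43.7 CPM in starch 2, 30.4 CPM in control 8 and 23.0 CPM in control 5. These piglets thus included both its lowest and its second highest value. Its log2 fold change was -0.03 (SE 0.12, 95% interval -0.29 to 0.22), and -0.09 without control 5, control 8 and starch 3.

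**Figure D1:**
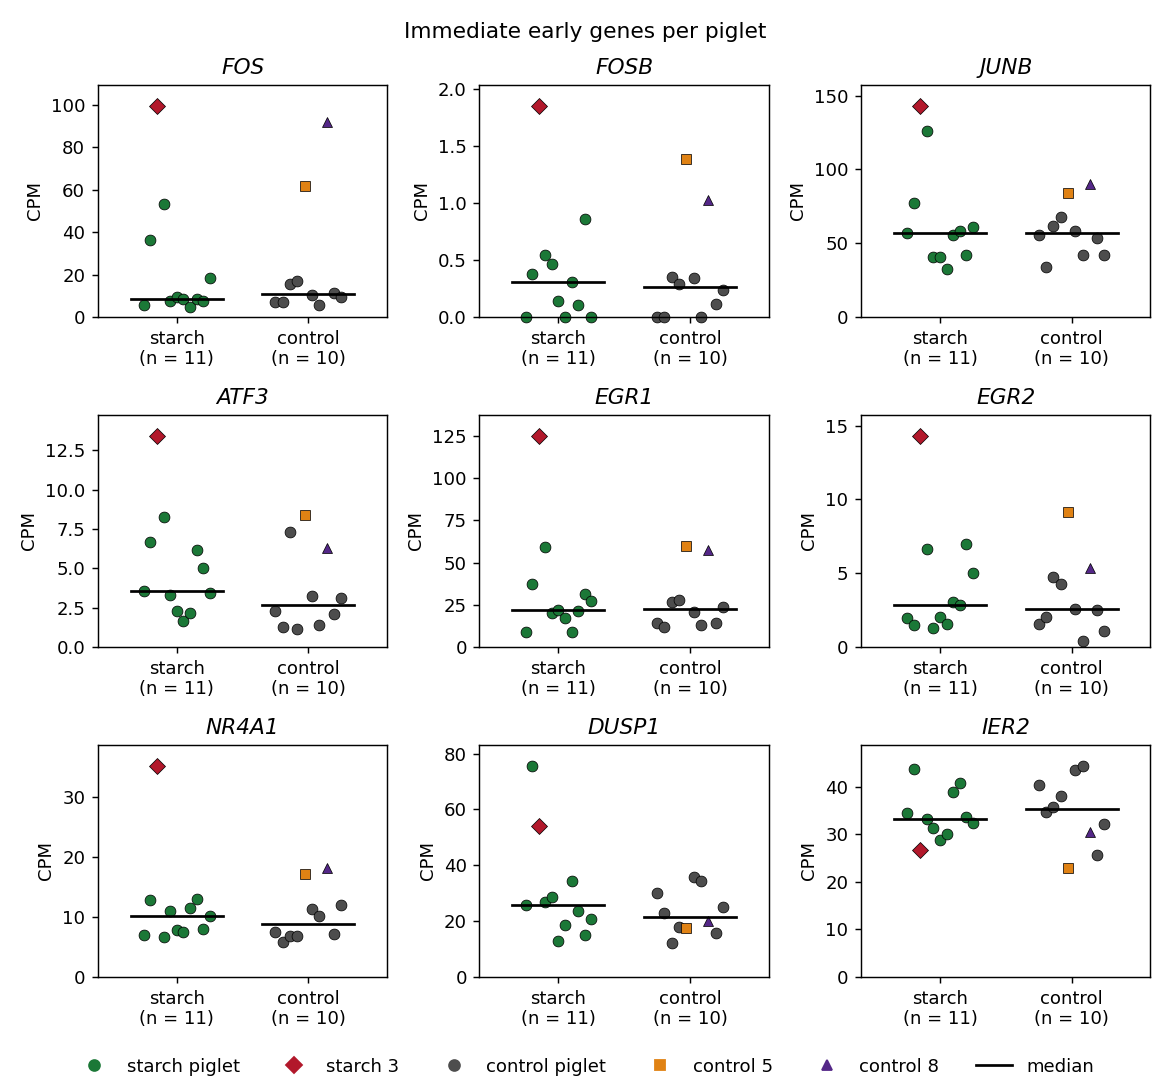
Level of each immediate early gene in CPM (y axis, linear from 0) in every starch piglet (left, n = 11) and control piglet (right, n = 10), with bars at the medians and own symbols for starch 3, control 5 and control 8. The 3 marked piglets are the highest for FOS, FOSB and NR4A1, not for DUSP1, and starch 3 and control 5 are low for IER2, while the diet medians lie close together.

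**Figure D2:**
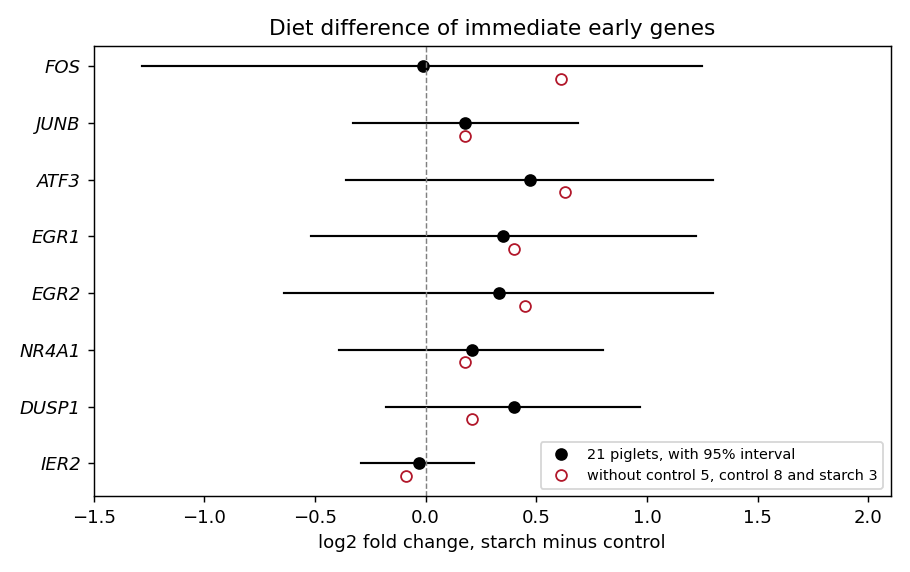
Log2 fold change, starch minus control (x axis), of the 8 tested members (rows), as filled points with 95% intervals over 21 piglets and open points without control 5, control 8 and starch 3. Every interval includes 0, and FOS moves most, to 0.61 in the open point.

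The spread between piglets differed widely among the members. The SD of log2 CPM over the 21 piglets was 1.34 for FOS, 1.05 for EGR2, 0.96 for EGR1 and 0.93 for ATF3, where the median over all tested genes was 0.45. These 4 of 8 members lay in the upper 10% of tested genes by SD, FOS at percentile 96.8. DUSP1 (0.64), NR4A1 (0.61) and JUNB (0.56) were nearer to the middle, and IER2 (0.26) stood at percentile 11.8. Without control 5, control 8 and starch 3 the SD of FOS was 0.90 and that of EGR1 0.70, which put EGR1 at percentile 87.6, outside the upper 10%. NR4A1 changed most in rank and stood at percentile 41.6 with an SD of 0.37. FOS, EGR2 and ATF3 were in the upper 10% in both sets of piglets. Counting error adds to the SD of the low genes EGR2, with 3 to 123 counts per piglet, and ATF3, with 8 to 116.

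FOS, JUNB, EGR1, ATF3 and EGR2 were correlated with one another across the 21 piglets, and less closely once 3 piglets were left out. Over all 28 pairs of the 8 tested members, 16 correlations passed an adjusted p of 0.05, of which 15 were positive (Pearson r of log2 CPM, two-sided permutation test with 100000 resamples, Benjamini-Hochberg over the pairs, n = 21 piglets), and 10 passed by Spearman's rho. A Pearson r of at least 0.6 was reached by 13 of the 28 pairs, against 7.33% of all pairs of tested genes. All genes of a piglet were measured in the same library and tissue piece. Without control 5, control 8 and starch 3 the count fell to 5 pairs past the threshold and to 4 pairs with r of at least 0.6, against 6.04% of all gene pairs.

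**Figure D3:**
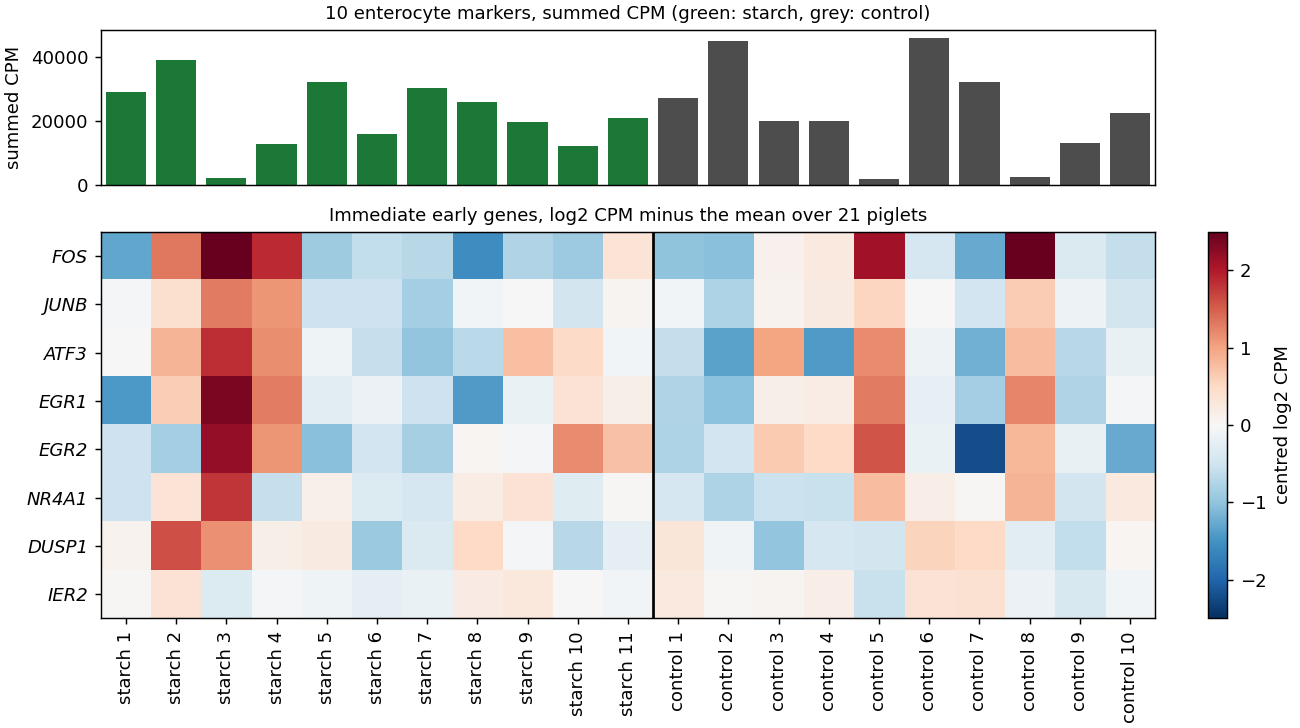
Upper panel, summed CPM of 10 enterocyte markers per piglet (bars from 0, starch green, control grey), and lower panel, log2 CPM of the 8 tested members (rows) minus the mean over 21 piglets, with the same order of piglets. Starch 3, control 5 and control 8 have the shortest bars and high FOS, JUNB, ATF3, EGR1 and EGR2, and starch 4 has high values of these 5 genes with 12700 CPM of enterocyte markers.

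FOS and EGR1 were the closest pair. Their r was 0.92 (permutation p = 1e-05, the smallest that 100000 resamples can give, adjusted p = 0.00014) and their rho 0.87 (permutation p = 1e-05, adjusted p = 0.00028). The r was 0.89 without the 2 piglets farthest from the median of FOS, 0.92 among starch piglets and 0.95 among control piglets. It was 0.85 in the 18 piglets (permutation p = 1e-05, adjusted p = 0.00028). The relation was thus nearly as close without the piglets with little enterocyte RNA.

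FOS and JUNB, which can form one dimer, had r = 0.85 (permutation p = 1e-05, adjusted p = 0.00014) and rho = 0.75 (permutation p = 0.00012, adjusted p = 0.00168). Their r was 0.78 without the 2 farthest piglets and 0.76 in the 18 piglets (permutation p = 0.00045, adjusted p = 0.0063). EGR1 and ATF3 had r = 0.77 (permutation p = 5e-05, adjusted p = 0.000467) and rho = 0.70 (permutation p = 0.00053, adjusted p = 0.00347), with 0.65 without the 2 farthest and 0.62 in the 18 piglets (adjusted permutation p = 0.0426). JUNB and ATF3 had r = 0.74 over all and 0.59 in the 18, where the adjusted permutation p, 0.05 after rounding, was just under the threshold. JUNB and EGR1 had r = 0.76 over all and 0.55 in the 18 (adjusted permutation p = 0.069). FOS and ATF3 had r = 0.71 over all and 0.53 in the 18 (adjusted permutation p = 0.0749), so neither pair passed there. The 4 correlations of EGR2 with FOS, JUNB, EGR1 and ATF3 were 0.66 to 0.72 over 21 piglets and passed, and were 0.43 to 0.51 in the 18, where none passed and the adjusted permutation p ran from 0.0967 to 0.167.

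The correlations of NR4A1 with FOS, JUNB and EGR1 passed over 21 piglets and were near 0 in the 18. Its r with FOS was 0.60 over 21 piglets (permutation p = 0.0043, adjusted p = 0.00926), with rho = 0.33 (permutation p = 0.144, adjusted p = 0.221), 0.25 without the 2 piglets farthest from the median of FOS and -0.06 in the 18 (permutation p = 0.821). The relation of NR4A1 with FOS thus rested on those samples. The r of NR4A1 was 0.64 with EGR1 over 21 and 0.07 in the 18 piglets, 0.55 and 0.02 with JUNB, 0.61 and 0.26 with ATF3, and 0.38 and -0.32 with EGR2. NR4A1 and DUSP1 behaved otherwise, with r = 0.48 over 21 piglets (permutation p = 0.0277, adjusted p = 0.0485), rho = 0.35 (permutation p = 0.117, adjusted p = 0.218) and 0.40 without the 2 piglets farthest from the median of NR4A1. In the 18 piglets their r was 0.57 (permutation p = 0.0108, adjusted p = 0.0502).

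DUSP1 and IER2 passed as a pair in the 18 piglets and not over all 21. Their r was 0.43 over 21 piglets (permutation p = 0.0534, adjusted p = 0.0831) and rho 0.47 (permutation p = 0.0323, adjusted p = 0.0823). It was 0.59 without the 2 piglets farthest from the median of DUSP1 and 0.66 in the 18 (permutation p = 0.0031, adjusted p = 0.0289, rho = 0.60 with permutation p = 0.0102). Starch 3, with high DUSP1 and low IER2, lay off this relation. The r of DUSP1 with FOS was 0.18 (adjusted permutation p = 0.461), at 0.56 among starch and -0.45 among control piglets. Among starch piglets DUSP1 had r = 0.63 with JUNB, 0.64 with NR4A1 and 0.36 with IER2, and among control piglets -0.39, 0.16 and 0.62. These differences between the diets were not tested. IER2 had negative r with FOS (-0.43), EGR1 (-0.41) and EGR2 (-0.48), of which the last passed (adjusted permutation p = 0.0481), and in the 18 piglets the 3 values were 0.00, -0.01 and -0.19.

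**Figure D4:**
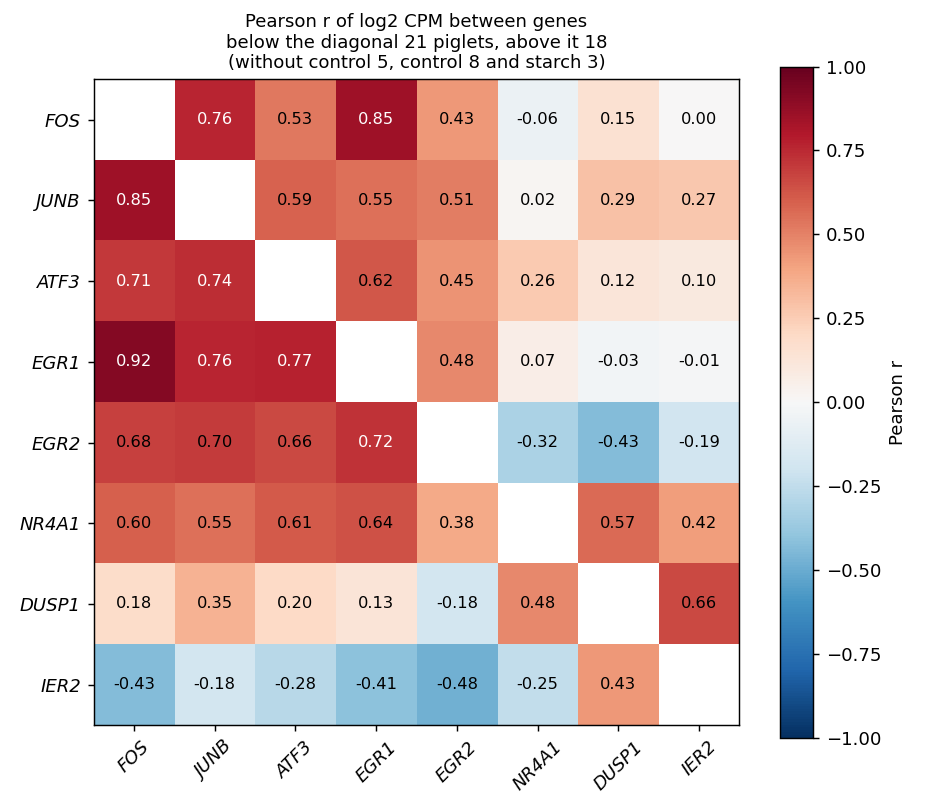
Pearson r of log2 CPM between the 8 tested members, over 21 piglets below the diagonal and over 18 above it (without control 5, control 8 and starch 3). The block of FOS, JUNB, ATF3, EGR1 and EGR2 is positive on both sides, NR4A1 has r of 0.38 to 0.64 with that block below the diagonal and -0.32 to 0.26 above it, and DUSP1 with IER2 has 0.43 below and 0.66 above.

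Levels of the members were set beside markers of the cell types of the gut wall, heat shock genes, the mitochondrial share and the total count, 88 relations in all. Of these, 26 passed an adjusted permutation p of 0.05 over 21 piglets, and 0 did so in the 18 piglets, where 12 had an unadjusted permutation p below 0.05. The piglets fell into separate groups by enterocyte score, with 3 far below the other 18, so no pooled r with that score is given. Within the 18 the r with the enterocyte score was -0.16 for FOS (permutation p = 0.532), -0.34 for EGR1 (permutation p = 0.169) and 0.42 for IER2 (permutation p = 0.0813). It was -0.47 for EGR2 (permutation p = 0.046, adjusted p = 0.337; rho = -0.55 with permutation p = 0.0197) and 0.51 for DUSP1 (permutation p = 0.0312, adjusted p = 0.271; rho = 0.49 with permutation p = 0.0405).

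Heat shock genes, chaperones that rise when proteins misfold, had 12 members in the files of 13 listed, all past the filter and none at 0 in any piglet. Summed, they read 2820 to 7550 CPM in starch and 3030 to 8810 CPM in control piglets, with 7550 CPM in starch 3, 6400 CPM in starch 4, 8810 CPM in control 8 and 6360 CPM in control 5. An r of at least 0.6 with their score was reached by 6 of 8 members, against 11.8% of all tested genes, and in the 18 piglets by 2 of 8, JUNB and ATF3, against 2.44%. FOS had r = 0.83 (permutation p = 4e-05, adjusted p = 0.00154; rho = 0.57 with permutation p = 0.00707, adjusted p = 0.0518), 0.67 without the 2 farthest piglets and 0.57 in the 18 (permutation p = 0.0193, adjusted p = 0.232; rho = 0.33 with permutation p = 0.185), where it was 0.10 without the 2 farthest. ATF3 had r = 0.75 (permutation p = 7e-05, adjusted p = 0.00154) and rho = 0.73 (permutation p = 0.00018, adjusted p = 0.00792), 0.73 without the 2 farthest and 0.68 in the 18 (permutation p = 0.00106, adjusted p = 0.0682), where it was 0.48 without the 2 farthest. JUNB had r = 0.79 over all and 0.68 in the 18 (permutation p = 0.00411, adjusted p = 0.105), where it was 0.32 without the 2 farthest. Between the diets 0 of the 12 heat shock genes passed in edgeR's test (0% of all genes did), with 5 higher and 7 lower on starch, and log2 fold changes of -0.28 for BAG3, -0.28 for HSPA8, 0.08 for HSPE1 and 0.13 for HSPA1L, the 4 with the smallest p. The part of the heat shock genes in the levels of the members was not tested.

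Macrophage markers, 8 of 8 past the filter and none at 0 in any piglet, summed to 426 to 3210 CPM in starch and 367 to 2300 CPM in control piglets. The 3 highest sums were 3210 CPM in starch 3, 2300 CPM in control 8 and 2210 CPM in control 5. EGR2, known from the mouse to be expressed in macrophages among other cells, had r = 0.82 with their score (permutation p = 2e-05, adjusted p = 0.00154) and rho = 0.86 (permutation p = 1e-05, adjusted p = 0.00088). The r was 0.76 without the 2 farthest piglets and 0.69 in the 18 (permutation p = 0.00155, adjusted p = 0.0682). Within the 18 their rho was 0.79 (permutation p = 0.0002, not adjusted), and r was 0.64 without the 2 farthest. Of the 8 members, 3 had an r of at least 0.6 with this score, against 15.8% of all tested genes, and in the 18 piglets 1 did so, EGR2, against 10.7%. By the same measure 1 of 8 members reached 0.6 with the smooth muscle score (9.86% of all tested genes), 1 with the total count (3.72%) and 0 with the endothelium (7.54%), fibroblast (7.91%), enteric glia (13.6%), B cell (2.56%) and T cell (3.41%) scores or the mitochondrial share (0.449%). With the enterocyte score left out, since its pooled r is not given, 1 of 8 reached -0.6 in the negative direction, with the endothelium score (5.86%). This was IER2, with r = -0.67 (permutation p = 0.0011, adjusted p = 0.00733), rho = -0.70 (permutation p = 0.00064, adjusted p = 0.0118), -0.76 without the 2 farthest piglets and -0.54 in the 18 (permutation p = 0.0204, adjusted p = 0.232). IER2 also passed with the fibroblast score, at r = -0.59 (permutation p = 0.00519, adjusted p = 0.0228; rho = -0.57 with permutation p = 0.00874, adjusted p = 0.0592), -0.66 without the 2 farthest and -0.38 in the 18. EGR2 passed with the T cell score, at r = 0.55 (permutation p = 0.0106, adjusted p = 0.0388; rho = 0.63 with permutation p = 0.00316, adjusted p = 0.0309), 0.73 without the 2 farthest and 0.54 in the 18 (permutation p = 0.0211, adjusted p = 0.232). Within the 18 the rho of EGR2 with the T cell score was 0.71 (permutation p = 0.00141, not adjusted), and r was 0.78 without the 2 farthest. Smooth muscle markers, 9 of 10 in the files, summed to 6420 to 24600 CPM in starch and 8810 to 38600 CPM in control piglets, and FOS had r = 0.66 with their score (permutation p = 0.00125, adjusted p = 0.00733; rho = 0.58 with permutation p = 0.0068, adjusted p = 0.0518), 0.55 without the 2 farthest and 0.32 in the 18. ATF3 had r = 0.64 with the total count of the library (permutation p = 0.00146, adjusted p = 0.00803; rho = 0.69 with permutation p = 0.00067, adjusted p = 0.0118), 0.65 without the 2 farthest and 0.64 in the 18. The part of muscle, macrophages, endothelium, fibroblasts, T cells and depth in these levels was not tested.

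**Figure D5:**
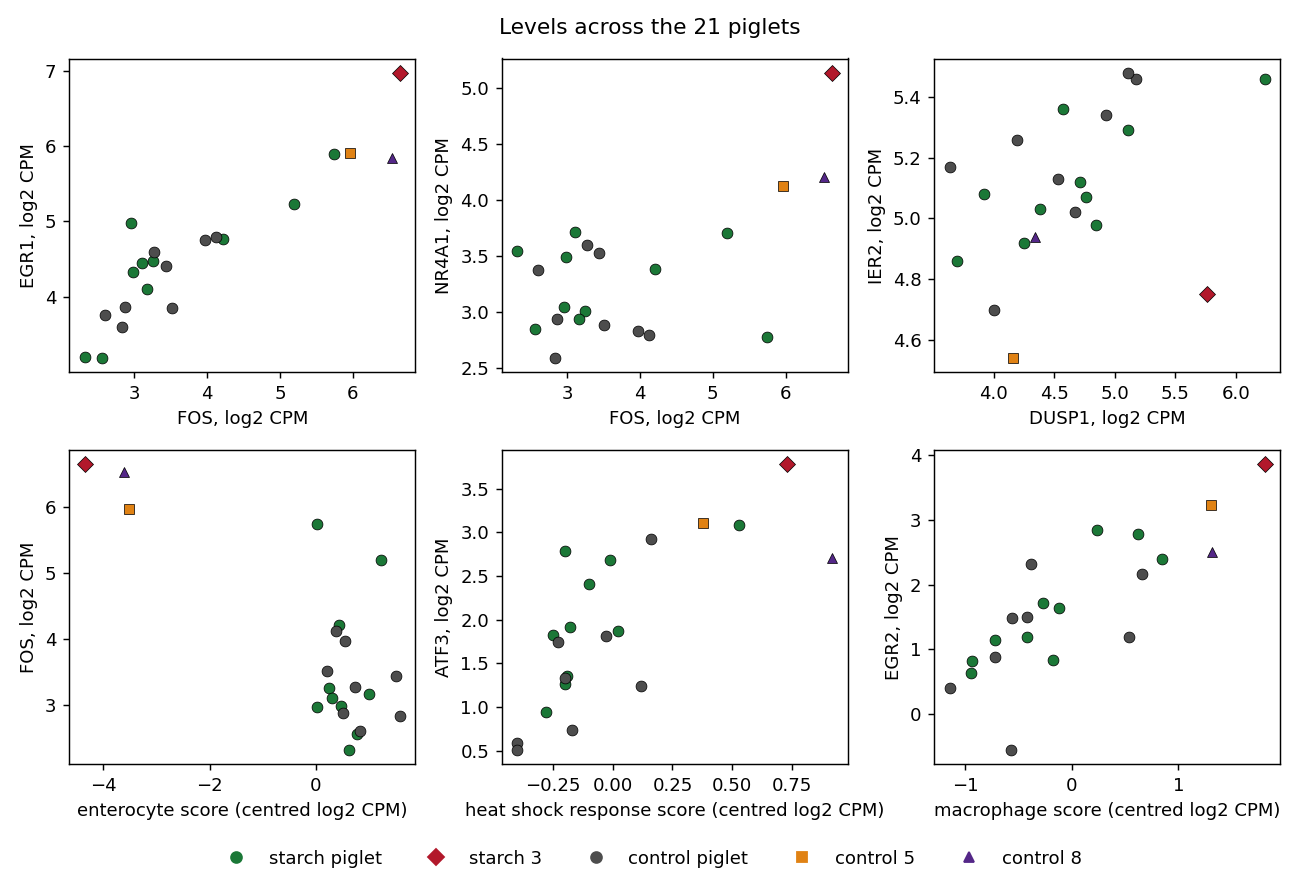
Each point is a piglet, with log2 CPM of a member on the y axis and, on the x axis, log2 CPM of another member (upper row) or a list score in centred log2 CPM (lower row). EGR1 rises with FOS along the whole range, NR4A1 is highest in starch 3, control 5 and control 8, and those 3 piglets lie apart from the other 18 by enterocyte score.

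A list of 32 other immediate early and early response genes was examined in the same way. Of these, 28 were in the files and 24 were tested, and 0 of 24 passed between the diets (0% of all genes did), with 19 higher and 5 lower on starch, where 6711 of all 13127 genes were higher and 6416 lower. Their median log2 fold change was 0.14, that of the 8 members 0.27 and that of all tested genes 0.0039. These directions changed with the piglets left out and with the test. Without starch 3, the median of the members was -0.03, with 2 higher and 6 lower, and 12 of the 24 were higher and 12 lower. Without control 5, control 8 and starch 3, the median of the members was 0.31, with 7 higher and 1 lower, and 16 of the 24 were higher and 8 lower. Over all 21 piglets, 13 of the 24 were higher and 11 lower with voom in place of edgeR. With limma on log2 FPKM, 11 of the 24 were higher and 13 lower. Their smallest unadjusted p values in edgeR's test belonged to ZFP36, which encodes a protein that promotes decay of AU-rich messages, with a log2 fold change of 0.32 at 110 ± 52.3 CPM on starch and 88.1 ± 16.4 CPM in control (SD, n = 11 and 10). CSRNP1, GADD45B and FOSL2 followed with log2 fold changes of 0.31, 0.57 and 0.18. Across piglets 13 of the 24 had an r of at least 0.6 with the mean centred log2 CPM of the members, against 9.19% of all tested genes. Without control 5, control 8 and starch 3 the count was 2 of 24, IER5 and ZFP36, against 0.891%. CCN1, a secreted matrix protein and target of serum response factor and YAP, read 53.8 CPM in starch 3, 22.7 CPM in control 5 and 26.2 CPM in control 8, and at most 11.0 CPM elsewhere. IER3, a stress-inducible regulator of survival, read 22.4, 10.4 and 12.1 CPM in these piglets and at most 5.94 CPM elsewhere. SOCS3, an inhibitor of cytokine signalling, read 49.5, 21.7 and 22.1 CPM, the 3 highest of its values. SGK1, a kinase induced by serum and glucocorticoids, went the other way, at 28.5, 54.4 and 31.0 CPM, with at least 75.7 CPM elsewhere and a median of 517 CPM. CCN1, IER3, SOCS3 and SGK1 were chosen after their values were seen.

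The genes most like the members were found by Pearson r with the mean centred log2 CPM of the 8 tested members over 21 piglets, given as a description. The 10 nearest with a symbol had r from 0.85 to 0.89. They were NFIL3, RPS6KA4, SENP3, SERPINB9, CEBPB, PLAU, PHC2, MAP2K1, ACKR3 and SLC6A9, and all 10 were highest in starch 3. The mean by which they were chosen was also highest there, at 1.63, so this follows in part from the choice. RPS6KA4, a kinase acting below ERK and p38, had r = 0.89 and kept 0.83 without control 5, control 8 and starch 3. It read 44.3 CPM in starch 3, 41.8 CPM in control 5 and 41.8 CPM in control 8, beside a median of 29.0 CPM. MAP2K1, the kinase that activates ERK, had r = 0.86 and 0.67 without the 3 piglets. NFIL3, a leucine zipper repressor, had a median of 21.9 CPM and its highest value, 99.6 CPM, in starch 3. CEBPB, a factor of the acute phase response, had a median of 2.81 CPM and read 35.5 CPM in starch 3, 17.9 CPM in control 5 and 13.5 CPM in control 8. At the other end TRPM6, a magnesium channel, MUC13, a mucin of the brush border, KCNJ13, CUL7 and SLC22A4 had r from -0.89 to -0.86. The median of MUC13 was 598 CPM, and starch 3 read 60.7 CPM, control 5 105 CPM and control 8 180 CPM. TRPM6 kept r = -0.79 among the other 18 piglets.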

How the data were processed

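Bulk RNA of 21 piglets was analysed from 1 transcript table per piglet. The deposited columns are, per the file headers, an identifier, a length, an unscaled expected count and FPKM. The authors' FPKM values are relative to length and library depth. Lengths were multiples of 3 in 99.96 to 99.97% of rows and are taken as coding lengths. HISAT and DESeq2 are named, without version or role, per the submitters' processing notes. Counting program, strand setting and build: not given in the sources used here.

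Expected counts were summed per gene and rounded. Of 18661 genes 76.5% had a symbol in the pig name table, and the class of the NR4A1 locus came from the RefSeq table of Sscrofa11.1. All genes were fitted with edgeR 4.0.16 (R 4.3.3) by the quasi-likelihood F test, with TMM scaling, filterByExpr (minimum count 10, minimum total 15), diet as the only term and Benjamini-Hochberg adjustment over 13127 genes. Tests were first checked on simulated data. CPM uses TMM-scaled library sizes, and log2 CPM a prior count of 2. Scores are means of centred log2 CPM over a list. Correlations were tested by permutation, two-sided. Totals of 6719264 to 8610458 set the counting error. Beyond diet and a replicate number, the labels give no grouping of samples. The p-values of the diet test set differences against the spread between these piglets.

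The members and lists were chosen with earlier results of these data known. Named genes are the members, the 4 genes of a list whose p was smallest, and the 10 most and 5 least like the members, and others are marked as chosen after their values were seen. Alternatives were RLE and upper-quartile scaling, DESeq2 1.42.0, voom (limma 3.58.1) with quality weights, limma on log2 FPKM with a pseudocount of 0.5 or 0.1 (genes reaching FPKM 1 in 10 or more piglets), no filter, the replicate number as a block, the smooth muscle score as covariate, mitochondrial genes left out, and piglets left out. For correlations between members, RLE scaling, a prior count of 0.5, deviations from diet means and residuals after the smooth muscle score were used. Relations with scores were repeated only with RLE scaling, deviations from diet means and without the 3 piglets. SDs were repeated only within diet groups, with a prior count of 0.5 and without the 3 piglets. The SD and the shares of high correlations without 3 piglets, and list medians without single piglets, were added after seeing the data.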

Additional observations from a re-analysis of the deposited data

Results flagged for a closer look

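Among the values given for the control piglets, the summed smooth muscle markers of control 8, 38600 CPM, stood apart, since the gap to the next piglet was 0.557 of the group's range against a critical value of 0.466 for 10 piglets. Chance alone gives such a gap in about 1 of 20 groups. It was looked for in the 9 genes and in the enterocyte, smooth muscle, macrophage and heat shock sums, so such a gap somewhere among them would not be unusual. In the same piglet FOS read 92.0 CPM and NR4A1 18.2 CPM, the highest of the control group. None of the 9 immediate early genes had a control value that stood apart by this criterion. The starch group of 11 was not examined, since the critical values used ended at 10 piglets.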

How the results depend on the processing

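In all 32 alternatives to the diet test, 0 genes and 0 members passed, with 293 genes at an unadjusted p below 0.05 in DESeq2, 268 with voom, 524 with no filter, 317 with the smooth muscle score, 382 without control 5, control 8 and starch 3, and 117 to 302 without single piglets, in place of 174. The signs of ATF3 and DUSP1 held in all 32, with 0.20 to 0.69 and 0.17 to 0.49 without single piglets. FOS changed sign with the smooth muscle score as covariate (0.13), with voom (0.00), with the replicate block (0.00) and without control 5, control 8 and starch 3 (0.61), and IER2 with the smooth muscle score (0.00). The cause was not tested. Leaving out single piglets gave FOS -0.60 to 0.54, JUNB -0.01 to 0.27, EGR1 -0.11 to 0.55, EGR2 -0.06 to 0.64, NR4A1 -0.12 to 0.33 and IER2 -0.09 to 0.01, and 11 (without starch 3) to 17 correlated pairs in place of 16. The negative values of JUNB, EGR1, EGR2 and NR4A1 were those without starch 3. Without control 5, control 8 and starch 3, 5 pairs and 0 of 88 relations passed, with fewer piglets. The other alternatives, where run for that result, gave 14 to 16 pairs, 26 relations and 4 members in the upper 10% by SD, against 3 without those 3 piglets. Of the 10 pairs of piglets with the same replicate number, 4 correlated above 0.1 (from -0.337 to 0.485). Other pairs were not set beside them, so whether such piglets shared more than the number cannot be told. The replicate block gave 188 genes at an unadjusted p below 0.05, against 174. Totals of this size leave EGR2, ATF3 and above all FOSB with few counts per piglet.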

Other observations

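Of the other early response genes, 4 fell below the filter, and their values were looked at after the others. FOSL1, a FOS relative that forms AP-1 dimers, read 6.84 CPM in starch 3, 6.97 CPM in control 5 and 11.7 CPM in control 8, and at most 1.35 CPM in any other piglet, that of starch 4. NR4A3 read 5.68 CPM in starch 3, 2.79 CPM in control 5 and 0.641 CPM in control 8, and at most 2.68 CPM elsewhere. EGR3 was highest in starch 10, at 3.22 CPM, the piglet that also had a high EGR2. ARC had at most 2 counts in any piglet.

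Of the kinases and factors upstream of immediate early genes 18 of 20 were tested and 0 passed between the diets, with log2 fold changes from -0.22 (ATF1) to 0.16 (RPS6KA1). SRF, the serum response factor, read 42.2 CPM in starch 3, 54.8 CPM in control 5 and 35.4 CPM in control 8, beside a median of 40.7 CPM over the 21 piglets. Looked at after their values were seen, MAP2K1, ELK3 and RPS6KA3 were highest in just these piglets. How many of all tested genes were so was not counted, so this is not a trait of the list. MAP2K1 read 47.4, 38.4 and 43.1 CPM in starch 3, control 5 and control 8, and at most 37.9 CPM elsewhere. ELK3, a partner of serum response factor, read 37.0, 41.1 and 36.7 CPM, and at most 33.4 CPM elsewhere. RPS6KA3, a kinase acting below ERK, read 35.9, 63.8 and 41.5 CPM, and at most 34.2 CPM elsewhere. RPS6KA5 was low there, at 4.87, 9.16 and 4.74 CPM beside a median of 22.4 CPM.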
